A study of Mus musculus with 8 samples.

Results

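The genes described here encode the proteins of the cytosolic ribosome. They were chosen by symbol: Rps or Rpl followed by digits and at most the ending a, x, l or l1, together with Rplp0, Rplp1, Rplp2 and Rpsa. Rows with the ending -ps, which mark pseudogenes, were left out. This gave 83 of the 25834 genes in the table, 32 of the small subunit and 51 of the large subunit, and 82 of them passed the filter on low counts among 16251 genes tested. The gene left out by the filter was Rpl39l.

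Each ribosome is built from ribosomal RNA and 1 copy of nearly every one of these proteins, so the genes are held at like levels in most cells. Their mRNAs are short and abundant, and most begin with a run of pyrimidines, the terminal oligopyrimidine tract, through which growth signals acting on mTORC1 set their translation. In neurons ribosomes supply protein to the cell body and, at synapses, to dendrites. Ribosomal protein mRNAs are also widely used as reference transcripts in qPCR, and the study of SAP97 used Rps18 for that purpose.

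RNA was sequenced from the hippocampi of male mice, with 4 control and 4 SAP97-cKO libraries, 1 per mouse. SAP97-cKO mice carried Nestin-cre and 2 floxed copies of SAP97 (Dlg1), a postsynaptic scaffold gene. Nestin drives Cre in neural progenitors, so neurons and most glia descend from cells that expressed it, whereas microglia, meningeal and blood cells do not. The controls were littermates that were Cre-only, floxed-only or wild type. The genotype of each control library is not stated in the labels or methods. Protein was measured in mice of 2 months, and the age is not stated separately for the sequenced RNA.

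The deposited counts were divided by each library's total and scaled for composition (TMM), and are given as CPM. Library totals lay between 37388177 and 37426572 counts, because the authors had resampled the reads to 1 depth, so depth did not separate the libraries. Dlg1, the targeted gene, measured 110, 122, 107 and 125 CPM in control replicates 1 to 4 and 62.9, 82, 57.3 and 53.7 CPM in SAP97-cKO replicates 1 to 4. The groups did not overlap (log2 fold change -0.86, SE 0.12, adjusted p = 0.143 by the edgeR quasi-likelihood test). That adjusted p passed the study's threshold of an FDR under 0.25, which is used throughout. These Dlg1 counts cover the whole gene. The paper reports a much larger fall in reads on a single exon of it, and checked the SAP97 protein of each animal by western blot. The 14 neuronal marker genes were all tested and summed to 12500 to 13800 CPM in controls and 13700 to 15500 CPM in SAP97-cKO. Their median log2 fold change was 0.041, and 0 passed the threshold. At an unadjusted p under 0.05 by the edgeR test, 4 were higher in SAP97-cKO and 0 lower. Over all 16251 genes tested these counts were 768 and 1139. Because these are bulk libraries, fewer cells of a type and less RNA per cell cannot be told apart.

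The start of the transcript is where these genes are most alike in sequence, so the 30 bases around the annotated start are shown for genes that recur below and for some further genes with a long tract. RefSeq promoters on GRCm38.p6 were matched by symbol for 61 of the 83 genes. Each window runs from 10 bases before the start to 20 bases into the transcript, 5′ to 3′ on the gene's own strand, and capitals mark a pyrimidine tract, a C followed by at least 6 C or T.
Rps12, chr10:23787190-23787219, minus strand: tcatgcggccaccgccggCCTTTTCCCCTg
Rps18, chr17:33955646-33955675, minus strand: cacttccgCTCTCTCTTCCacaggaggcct
Rps6, chr4:86857348-86857377, minus strand: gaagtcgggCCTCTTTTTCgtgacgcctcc
Rps27, chr3:90213629-90213658, minus strand: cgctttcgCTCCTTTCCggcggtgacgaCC
Rplp2, chr7:141447641-141447670, plus strand: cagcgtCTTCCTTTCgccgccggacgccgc
Rpl7a, chr2:26910797-26910826, plus strand: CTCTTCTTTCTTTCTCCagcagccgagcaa
Rpl35, chr2:39005112-39005141, minus strand: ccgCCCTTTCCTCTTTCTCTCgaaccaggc
Rpl27a, chr7:109519185-109519214, plus strand: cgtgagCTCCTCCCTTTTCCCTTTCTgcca
Rpl22l1, chr3:28805498-28805527, plus strand: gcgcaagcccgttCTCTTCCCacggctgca
Rps27l, chr9:66946076-66946105, plus strand: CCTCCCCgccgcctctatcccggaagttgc
Rpl24, chr16:55966265-55966294, plus strand: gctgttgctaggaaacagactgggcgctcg
The tract lay on or next to the start in Rps18, Rps6, Rps27, Rplp2, Rpl35 and Rpl27a. In the window of Rps27l it lay before the start, with a further tract-free RefSeq start for the same gene, and the window of Rpl24 held none.

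A tract beginning between 20 bases before and 30 bases after the start was present in 42 of the 61 genes (68.9%), against 26.6% of all 27025 genes in the RefSeq promoter table. The 300 bases from 250 before to 50 after the start were also searched on both strands for 3 further motifs, none of which contains another. CGGAAGT, the core bound by ETS factors such as GABP, occurred in 21 of 61 ribosomal protein promoters (34.4%) and in 7.20% of all. AAGATGGC, a YY1-type sequence, occurred in 6 (9.84%) against 3.19%. The TATA sequence TATAAA occurred in 7 (11.5%), against 15.7% of all promoters. These are matches of letters and do not show binding.

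The genes are spread over 19 chromosomes, with Rpl10, Rpl36a, Rpl39 and Rps4x on the X chromosome. Of the 83, 81 are annotated as protein-coding in GENCODE M21, whereas Rpl6l and Rps4l are annotated as pseudogenes. Their transcripts had a median length of 729 bases, against 2701 bases over all genes tested. Small nucleolar RNA genes lie inside 29 of the 80 protein-coding ones tested (36.2%), in the same orientation, compared with 1.61% of the 14634 protein-coding genes tested.

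In control hippocampus the more abundant of these mRNAs mostly sat in a narrow band once transcript length was allowed for. The level per length was computed as RPKM, the CPM divided by the length in kilobases of 1 principal transcript per gene. Among the 76 genes over 50 CPM in controls, the median was 260 RPKM, and the 10th and 90th percentiles, 134 and 384 RPKM, were 2.88-fold apart. That cut on level leaves out the lowest genes, so the spread over all genes tested is wider. The extremes were 28.4-fold apart, from Rps20 at 35.9 RPKM upward. The low value of Rps20 goes with a chosen transcript of 3706 bases, against a median of 729, while its control mean was 133 CPM. The highest was Rplp1, a stalk protein, at 1020 ± 173 RPKM (SD, n = 4), followed by Rps29 at 590 ± 110 and Rps15 at 576 ± 130 RPKM. Rplp1 stood above the spread of the next gene, while Rps29 and Rps15 differed by less than their SD.

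At the other end, Rpl3l, a form of Rpl3 found mainly in striated muscle, was nearly silent at 0.236 ± 0.130 RPKM (SD, n = 4), and the pseudogene Rpl6l was at 0.883 ± 0.108 RPKM. Rps27l, the paralog of Rps27, was at 22.9 ± 3.69 RPKM and the pseudogene Rps4l at 28.8 ± 6.85 RPKM. Rpl24 was at 31.7 ± 4.07 RPKM, below the 10th percentile given above. Rpl39l, a paralog of Rpl39 best known from testis, had 3, 0, 10 and 2 reads in the controls and 11, 1, 4 and 5 in the SAP97-cKO libraries. Rank depends on the transcript chosen: over all annotated exons Rpl9 fell from place 4 to place 26, whereas Rplp1 stayed first.

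**Figure D1:**
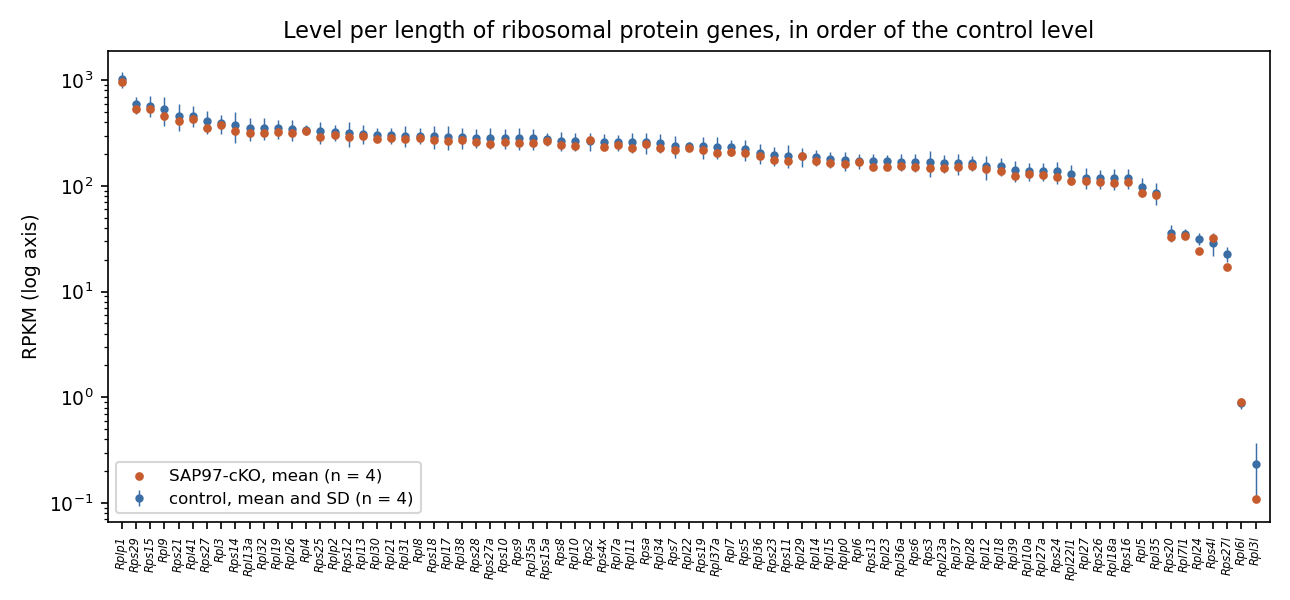
Level per length (RPKM, logarithmic axis) of ribosomal protein genes, ordered by the control mean, with control mean and SD in blue and SAP97-cKO mean in orange (n = 4 each). The 10th and 90th percentiles of the genes over 50 CPM are 134 and 384 RPKM, Rplp1 is at 1020, and Rpl6l and Rpl3l are below 1.

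One library stood apart in these genes and has to be described before the genotypes are compared. The summed ribosomal protein counts made up 1.29%, 1.36% and 1.35% of all counts in control replicates 1, 2 and 3, but 1.98% in control replicate 4. The SAP97-cKO replicates 1 to 4 had 1.39%, 1.31%, 1.30% and 1.32%. Control replicate 4 was thus far above the other 7 libraries, which lay together whatever their genotype.

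The rise in this control mouse ran through nearly the whole ribosome. Control replicate 4 had the highest of the 8 values in 80 of the 82 genes, against 22.9% of all genes tested, and exceeded the highest of the other 7 by over 1.2-fold in 72, against 4.94% of all. The median fold over the mean of the other 7 libraries was 1.44, with 1.46 for the small and 1.42 for the large subunit. Among genes over 50 CPM it ran from 1.17 in Rpl22 to 1.71 in Rpl9 and Rps14. The exceptions were Rpl3l, which had 3 reads in that library, and Rpl6l, both hardly expressed.

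**Figure D2:**
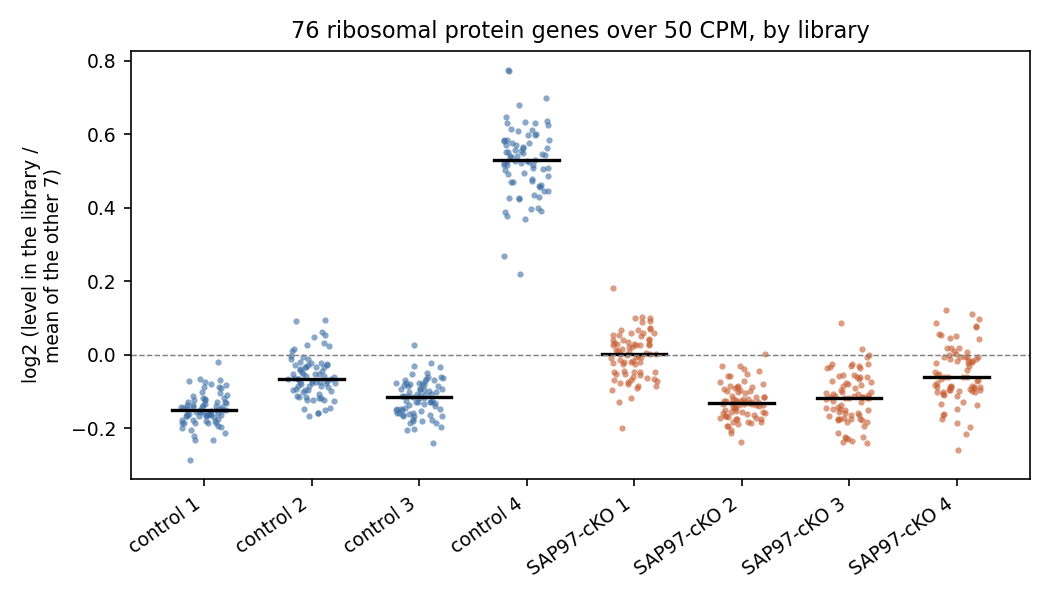
Log2 ratio of each library to the mean of the other 7 for the 76 ribosomal protein genes over 50 CPM, each point a gene and each bar the median (controls blue, SAP97-cKO orange). Every point of control replicate 4 is above 0, from a 1.17-fold to a 1.71-fold excess, while the medians of the other libraries lie near or below 0.

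Rpl9, a large subunit protein, shows the pattern at its strongest. It measured 302, 317, 307 and 531 CPM in the controls and 326, 318, 295 and 311 CPM in the SAP97-cKO mice. Apart from control replicate 4, the groups were interleaved. Rps14, of the small subunit, measured 184, 200, 183 and 333 CPM in the controls and 219, 186, 190 and 201 CPM in SAP97-cKO.

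Some genes moved less. Rpl22, an RNA-binding protein of the large subunit, was at 110, 111, 106 and 127 CPM in the controls and 116, 101, 109 and 111 CPM in SAP97-cKO. Rpl4 was at 478, 510, 488 and 603 CPM against 537, 463, 512 and 519, and Rpl7l1, which works in ribosome assembly, at 44.8, 41.3, 44.5 and 53.8 CPM against 40.8, 46.3, 44.4 and 44.2. In all 3, control replicate 4 was still the highest library.

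With this library the spread of ribosomal protein genes among controls was wide, and without it narrow. Their median SD of log2 CPM was 0.276 over the 4 controls, 0.0479 over the other 3 and 0.0721 over the SAP97-cKO mice. Over all genes tested these values were 0.177, 0.12 and 0.14. Once the median of the ribosomal protein genes was subtracted in each library, the SDs were 0.0466, 0.0324 and 0.0516, so the genes of a library kept nearly fixed proportions.

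Related genes in control replicate 4 differed in how far they shared the excess. The 5 ribosome components whose names fall outside the pattern did so fully, with a median 1.46-fold over the other 7 libraries and the highest value in 5 of 5. Fau, which encodes a ubiquitin-like protein fused to a small subunit protein, measured 150, 156, 154 and 231 CPM in the controls and 162, 160, 150 and 171 in SAP97-cKO. Rack1, a scaffold on the small subunit, measured 173, 184, 174 and 256 CPM against 183, 167, 175 and 172. In both genes control replicate 4 was the highest library and the other 7 overlapped between genotypes.

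Translation factors and other genes with a pyrimidine tract (18 genes) had a median of 1.24-fold in that library, with the highest value in 12 of 18. The mitochondrial ribosomal proteins, which serve a separate ribosome, had 1.24-fold and the highest value in 69 of 76. Ribosome biogenesis genes (35 tested) were at 0.974-fold and mTORC1 pathway genes with Myc (24) at 0.955-fold, with control replicate 4 highest in 8 and 5 of them.

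Transcript length moved with this result. Among genes outside the group, the median of control replicate 4 over the other 7 was 1.14-fold for transcripts under 500 bases, 1.18-fold from 500 to 1000, 1.11-fold from 1000 to 2000, 0.999-fold from 2000 to 4000 and 0.856-fold above 4000 bases. The ribosomal protein genes, cut in 3 by length, were at 1.46-, 1.44- and 1.40-fold from the shortest to the longest, above the medians of other genes of like length. Neither that difference nor the part of length in the result was tested. Genes with and without the pyrimidine tract were close, at 1.46-fold (41 genes) and 1.43-fold (19 genes), as were hosts of small nucleolar RNAs and the others, at 1.44- and 1.45-fold.

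**Figure D3:**
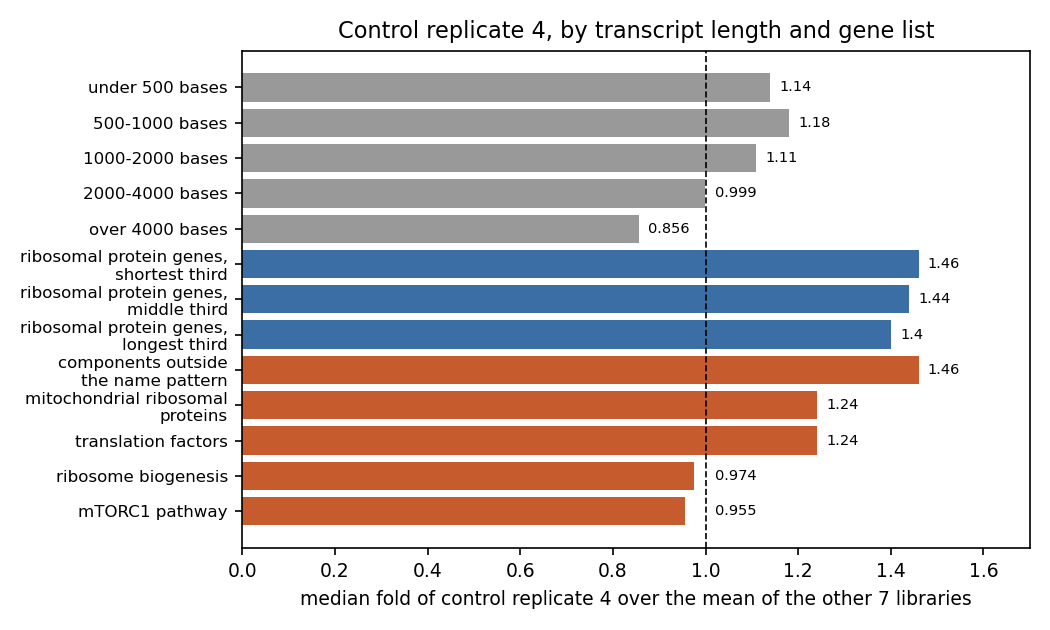
Median fold of control replicate 4 over the mean of the other 7 libraries, for other genes by transcript length (grey), the ribosomal protein genes by length (blue) and related lists (orange), with a dashed line at 1. Other genes go from 1.14 below 500 bases to 0.856 above 4000 bases, and the ribosomal protein genes lie at 1.40 to 1.46 at every length.

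Cell type markers also differed in control replicate 4. The 5 erythroid genes summed to 151 CPM there and to 66.7 to 84.8 CPM in the other controls and 52.3 to 79.7 CPM in SAP97-cKO, and all 5 were highest in that library. The 10 microglial genes summed to 579 CPM against 438 to 456 and 428 to 541 CPM, and 8 of them were highest there. Choroid plexus genes (16) were low in it, at 465 CPM, against 1890 to 10300 CPM in the other controls and 260 to 3410 CPM in SAP97-cKO, and no marker gene was at 0 in every library. Oligodendrocyte genes (10) summed highest in that library, at 9300 CPM against 4510 to 8610 CPM in the others, with a median of 1.41-fold and 5 of 10 highest there. Meningeal fibroblast genes had a median of 1.32-fold (3 of 20 highest). Their sum of 388 CPM was the lowest of the controls, against 411 to 756 CPM in the others and 214 to 387 CPM in SAP97-cKO. Astrocyte genes had a median of 1.24-fold (6 of 11 highest) and endothelial genes 1.03-fold (1 of 9). Neuronal genes had 0.881-fold (0 of 14), their sum of 12500 CPM being the lowest of the 8 libraries. Mitochondrial genes took 4.49% of its counts, within the 3.73% to 4.93% of the others. The part of these differences in the ribosomal protein result was not tested.

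The genotypes were then compared to ask whether loss of SAP97 altered the ribosomal protein mRNAs. None of the 82 genes passed an FDR of 0.25 with edgeR, against 0.295% of all genes tested, and the lowest adjusted p was 0.316. At an unadjusted p under 0.05 there were 2, Rpl24 and Rps27l, both lower in SAP97-cKO, against 11.7% of all genes in either direction and 7.01% lower. Limma-voom called 0 of them as well, against 0.308% of all genes. DESeq2 called 2, again Rpl24 and Rps27l, and it called 6.75% of all genes to which it gave an adjusted p.

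The fold changes as a whole leaned below 0 with control replicate 4 present and not without it. With all 8 libraries, 78 of 82 were below 0, against 52.8% of all genes, and the median log2 fold change was -0.13 (-0.14 small subunit, -0.12 large subunit), against -0.012. Without control replicate 4, 21 were below 0 and 61 above, against 50.3% of all genes below 0, and the median was 0.032. The summed share of counts was 1.5% ± 0.325 (SD, n = 4) in controls and 1.33% ± 0.0397 (n = 4) in SAP97-cKO, and 1.33% ± 0.0389 (n = 3) in controls without that mouse.

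The data bound how large a change could have gone unseen. For the 76 genes over 50 CPM, every 95% interval of the log2 fold change held 0 with all 8 libraries, the bounds having medians of -0.40 and 0.15. The lowest bound was -0.59 (Rpl9) and the highest 0.30 (Rps2). Without control replicate 4 the median bounds were -0.09 and 0.16, the extremes were -0.23 (Rpl23) and 0.32 (Rps2), and 74 of the 76 intervals held 0. The cut leaves out Rpl24 and Rps27l, whose intervals with all 8 libraries, -0.60 to -0.17 and -0.70 to -0.14, did not hold 0. The other tested genes under it had intervals that held 0, the lowest bound being -2.64 (Rpl3l).

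**Figure D4:**
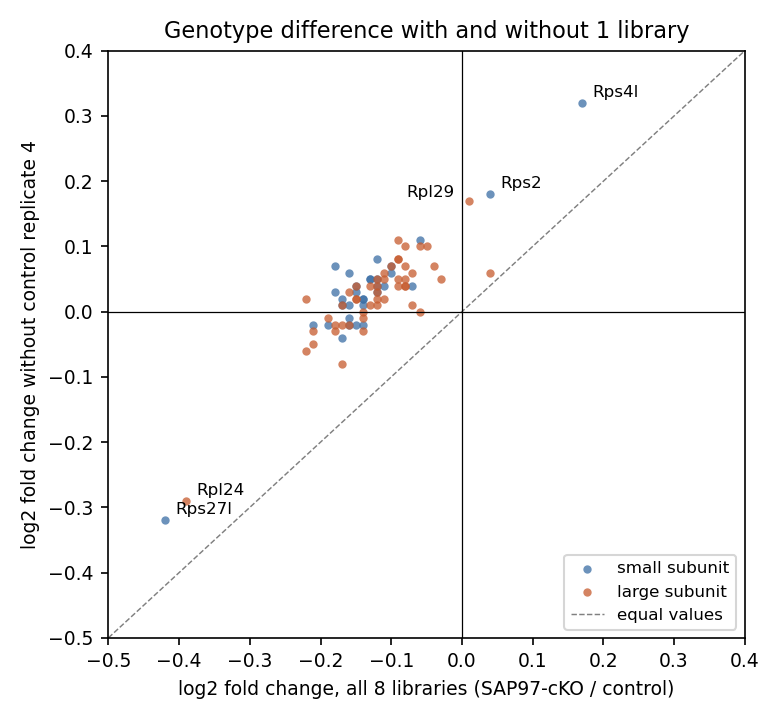
Log2 fold change (SAP97-cKO over control) of each ribosomal protein gene with all 8 libraries (horizontal) and without control replicate 4 (vertical), small subunit in blue and large subunit in orange. Rpl3l (-1.10 and -1.42) is off the scale. The cloud moves from a median of -0.13 to 0.032, while Rpl24 and Rps27l stay below 0 on both axes.

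Rps12 (ENSMUSG00000061983, chromosome 10, 23785183 to 23787275, minus strand, GRCm38) encodes a small subunit protein known from cell competition. It measured 138, 136, 135 and 219 CPM in the controls and 160, 140, 136 and 142 CPM in SAP97-cKO. Control replicate 4 was the highest and SAP97-cKO replicate 1 the next, and the other libraries of both genotypes lay within a few CPM. The log2 fold change was -0.12 (SE 0.15, adjusted p = 0.750), and 0.08 (SE 0.064, adjusted p = 0.617) without control replicate 4.

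Rps18 (ENSMUSG00000008668), a qPCR reference gene of the study, behaved alike. It measured 142, 154, 144 and 228 CPM in the controls and 150, 147, 150 and 157 CPM in SAP97-cKO. Control replicate 4 lay above every other library and the remaining groups overlapped. The log2 fold change was -0.15 (95% interval -0.45 to 0.16, adjusted p = 0.665), and 0.04 without control replicate 4.

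The stalk genes, whose proteins recruit elongation factors, did the same. Rplp0 was at 210, 217, 214 and 311 CPM in the controls and 232, 204, 220 and 220 CPM in SAP97-cKO. Rplp1 was at 476, 475, 451 and 639 CPM against 517, 455, 462 and 499, and Rplp2 at 125, 125, 122 and 172 CPM against 127, 120, 129 and 136. Their log2 fold changes were -0.12, -0.08 and -0.09, with adjusted p of 0.690, 0.782 and 0.748, and 0.04, 0.05 and 0.05 without control replicate 4.

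Rpl24 (ENSMUSG00000098274, chromosome 16, 55966275 to 55971435, plus strand) was the one gene whose groups did not overlap, against 6.25% of all genes. Its protein sits at the subunit interface, and a mutation of it underlies the belly spot and tail mouse. It measured 19.7, 20.6, 19.9 and 25.5 CPM in the controls and 17.0, 15.6, 16.7 and 16.4 CPM in SAP97-cKO. Control replicate 4 was the highest control here, so setting it aside could not change whether the groups overlap.

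The log2 fold change of Rpl24 was -0.39 (SE 0.096, 95% interval -0.60 to -0.17, adjusted p = 0.316 with edgeR), or a ratio of 0.765. Without control replicate 4 it was -0.29 (SE 0.067, adjusted p = 0.302). Against the other ribosomal protein genes of the same library it lay -2.89, -2.93, -2.91 and -3.09 log2 units from their median in the controls and -3.27, -3.23, -3.16 and -3.24 in SAP97-cKO. The lower level was thus seen in 4 of 4 SAP97-cKO mice on either scale, but did not pass the threshold. It passed when control replicate 1 (adjusted p = 0.179) or SAP97-cKO replicate 1 (adjusted p = 0.216) was left out of the edgeR fit. It moved further from the threshold without control replicate 2 (0.575) or 3 (0.497), and the highest leave-one-out adjusted p was 0.695.

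Rps27l (ENSMUSG00000036781, chromosome 9, 66946086 to 66949516, plus strand) encodes a variant of the small subunit protein Rps27 and is a known target of p53. It measured 9.36, 11.9, 10.7 and 13.7 CPM in the controls and 8.14, 9.37, 8.56 and 8.08 CPM in SAP97-cKO. SAP97-cKO replicate 2 reached control replicate 1, and the other libraries were apart. The log2 fold change was -0.42 (SE 0.13, 95% interval -0.70 to -0.14, adjusted p = 0.338 with edgeR) and -0.32 (SE 0.11, adjusted p = 0.335) without control replicate 4. Leaving out control replicate 1 instead took the adjusted p to 0.179, past the threshold. Without control replicate 2 or 3 it was 0.575 or 0.605, and the highest leave-one-out adjusted p was 0.695.

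**Figure D5:**
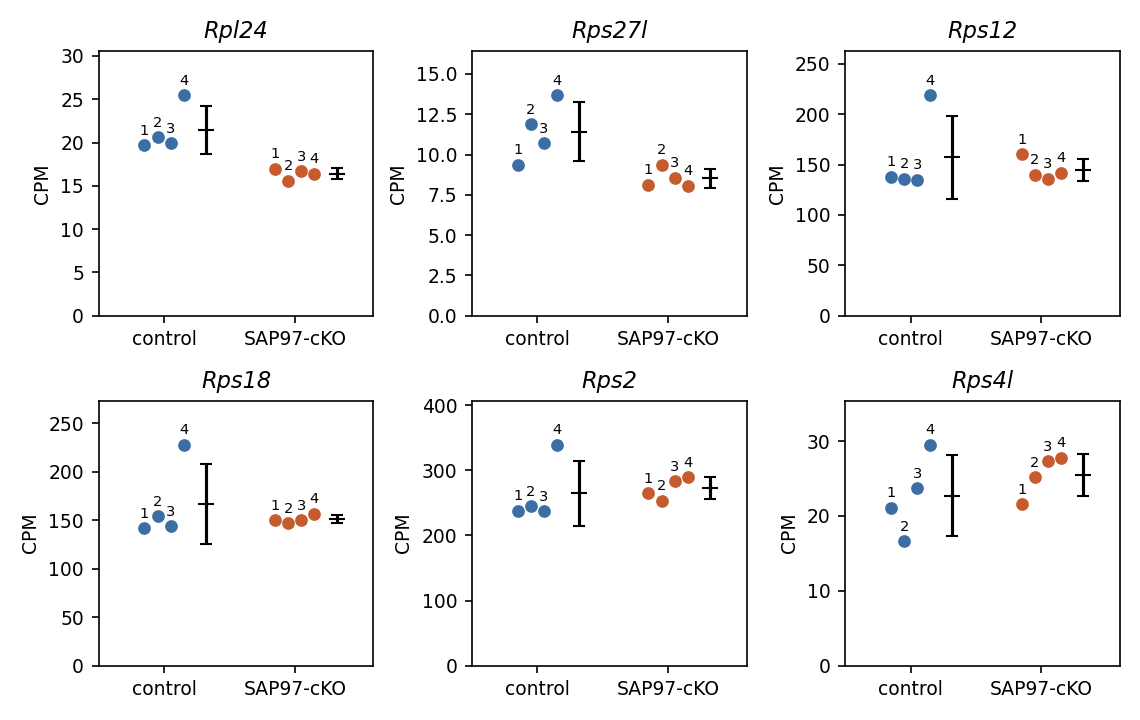
CPM of 6 ribosomal protein genes in each of the 4 control (blue) and 4 SAP97-cKO (orange) libraries, numbered by replicate, with mean and SD as black bars and every axis starting at 0. Control replicate 4 is the highest library in all 6 panels, and the groups are separate in Rpl24, where controls start at 19.7 and SAP97-cKO libraries end at 17.0 CPM.

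The next smallest p values in the downward direction belonged to large subunit genes and did not pass any threshold. Rpl23 was at 161, 181, 168 and 217 CPM in the controls and 177, 160, 154 and 153 CPM in SAP97-cKO (log2 fold change -0.17, adjusted p = 0.492, edgeR). Rpl5, which with Rpl11 can hold back Mdm2, was at 175, 192, 179 and 261 CPM against 186, 174, 163 and 177 (-0.21, adjusted p = 0.510). The groups overlapped in both.

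Only 4 genes had a fold change above 0 with all libraries: Rps4l (0.17), Rps2 (0.04), Rpl6l (0.04) and Rpl29 (0.01), with adjusted p of 0.665 or more, and without scaling of the libraries Rps2, Rpl6l and Rpl29 were below 0. Rps2 measured 238, 245, 237 and 339 CPM in the controls and 265, 253, 283 and 289 CPM in SAP97-cKO. Rpl29 measured 97.2, 101, 100 and 144 CPM against 114, 106, 109 and 119. In both, every SAP97-cKO library lay above the first 3 controls and below control replicate 4.

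Without that control, 5 genes reached an unadjusted p under 0.05 (11.9% of all genes did) and 0 passed an FDR of 0.25 (0.195% of all). Rps2 was then at 0.18 (SE 0.060, adjusted p = 0.326), Rpl29 at 0.17 (SE 0.054, adjusted p = 0.317) and Rps4l at 0.32 (SE 0.13, adjusted p = 0.388), all higher in SAP97-cKO, against 4.73% of all genes higher. Rpl24 and Rps27l were the lower ones, against 7.20% of all.

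Expressed relative to the ribosomal protein median of each library, 5 of the 82 genes had groups that did not overlap. Of all genes treated the same way, 2.59% did so, and 6.25% without the subtraction. The 2.59% is not a like background, because for other genes the subtraction brings in the ribosomal excess of control replicate 4. Against the 6.25%, 5 of 82 was no excess, so the genes are listed as description only. Rpl24 (difference -0.27), Rpl5 (-0.08) and Rps6 (-0.03), the substrate of S6 kinase, were lower in SAP97-cKO. Rpl29 (0.14) and Rpl3 (0.08), near the peptidyl transferase centre, were higher. Rpl3 measured 479, 485, 466 and 689 CPM in the controls and 537, 480, 503 and 526 CPM in SAP97-cKO, so that on the CPM scale its groups overlapped. This scaling was chosen after the data had been seen.

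Several of these genes have a near copy, a paralog or, for Rps4x, the transcribed pseudogene Rps4l. The balance within each pair was compared as a ratio, which no scaling affects. The exact two-sided permutation test over the 70 assignments of 8 libraries, whose smallest p is 0.0286, put none of 5 pairs past 0.05 (smallest p = 0.114, adjusted p = 0.286). Rps27l counts were 7.82%, 9.05%, 8.97% and 7.15% of Rps27 counts in the controls and 5.99%, 7.76%, 7.51% and 7.03% in SAP97-cKO. Rps4l was at 9.13%, 6.62%, 10.7% and 9.27% of Rps4x, the X-linked gene, against 8.91%, 11.7%, 11.8% and 12.1%. The groups of both pairs overlapped.

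Rpl22l1, whose level is known to be held down by Rpl22, was at 54.3%, 59.2%, 63.9% and 74.2% of Rpl22 in the controls and 56.1%, 62.7%, 54.6% and 53.3% in SAP97-cKO (exact permutation p = 0.257, adjusted p = 0.321). Its share was highest in control replicate 4. Rpl36al was at 53.4% ± 3.23 (SD, n = 4) of Rpl36a in controls and 55.0% ± 1.89 (n = 4) in SAP97-cKO (exact permutation p = 0.486). Rpl3l was under 0.2% of Rpl3 everywhere, with 13, 19, 14 and 3 reads in the controls and 1, 13, 2 and 6 in SAP97-cKO. Where paralogs or pseudogenes share sequence, the counting may have split reads among them, so ratios are uncertain. The 157 pseudogene rows with the ending -ps, named for 57 of the genes, held 0.14% as many reads as the genes themselves, at most 0.715% (Rpl10a). Rpl24 and Rps27l have no such row, and pseudogenes under other symbols were not counted.

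Components outside the name pattern followed the rest of the ribosome. Rps3a1 measured 242, 255, 245 and 357 CPM in the controls and 285, 230, 239 and 241 CPM in SAP97-cKO (log2 fold change -0.14, adjusted p = 0.654). Fau, Rack1 and Rpl36al were at -0.11, -0.17 and -0.09. None of the 5 components passed the threshold, and their median went from -0.14 to 0.0091 without control replicate 4.

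The other lists of the pathway held no gene past the threshold in either direction. Mitochondrial ribosomal proteins were below 0 in 71 of 76 (median -0.089), and in 44 of 76 without control replicate 4 (-0.012). Translation factors and other tract genes were below 0 in 12 of 18 (-0.076), then 6 of 18 (0.042). Ribosome biogenesis genes, with 14 of 35 below 0 (0.043), and mTORC1 pathway genes, with 9 of 24 (0.040), lay slightly above 0, and at 0.015 in both without that library.

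Marker lists of 5 other cell types had larger median fold changes than any ribosomal list. Meningeal fibroblast genes were below 0 in 20 of 20 (median -1.1), with 7 past the threshold (Aldh1a2, Col1a2, Col3a1, Mgp, Ogn, Slc22a6 and Slc6a13) and sums of 388 to 756 CPM in controls and 214 to 387 CPM in SAP97-cKO. Choroid plexus genes were below 0 in 16 of 16 (median -1.5, 0 past the threshold) and oligodendrocyte genes in 10 of 10 (median -0.51, 0 past the threshold), the latter summing to 5800 to 9300 and 4510 to 8140 CPM. Erythroid genes were below 0 in 5 of 5 (median -0.55) and endothelial genes in 9 of 9 (median -0.25), with 0 past the threshold in either list. Without control replicate 4 the erythroid median was -0.21 and the endothelial -0.22. Those of meningeal fibroblast, choroid plexus and oligodendrocyte genes were then -1.1, -1.8 and -0.39. Their part in the values of Rpl24 and Rps27l was not tested.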

How the data were processed

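Hippocampal RNA came from 8 male mice, 4 per genotype, each library a separate mouse. The authors used STAR 2.5.3a for alignment to mm10 (GRCm38.p5). Their PORT pipeline then took out ribosomal RNA and mitochondrial reads, resampled the libraries to equal depth and counted Ensembl genes. Mitochondrial genes nevertheless hold 3.73% to 4.93% of the deposited counts. The deposited values are whole-number counts per gene. Use of strand, which decides reads of overlapping genes, is not given in the sources used here. Columns with the authors' own fold changes, p- and q-values were deposited too and not used.

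Genes were kept with filterByExpr by genotype (minimum count 10, minimum total 15), scaled by TMM and tested in edgeR 4.0.16 (R 4.3.3) by quasi-likelihood without covariates. P-values were adjusted by Benjamini-Hochberg over the 16251 genes. Standard errors are the log2 fold change over the square root of F. Alternatives used limma-voom (limma 3.58.1), DESeq2 1.42.0, other scalings and filters, added pseudogene reads, a replicate block and each library left out. Lengths, types and positions are from GENCODE M21, by gene identifier. Rack1 is listed in the table under its older symbol Gnb2l1. No library repeated another, the chi-square per gene between any pair being 9.62 or more.

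The genes and lists were chosen with earlier results of these data known. Genes named singly are Rps12, Rps18 and the stalk genes; the 5 smallest p in each direction; genes past the threshold or with non-overlapping groups; the 3 highest and lowest per length; the 3 smallest and largest control SDs; paralog pairs; the components outside the name pattern; and Dlg1. Only 4 genes were above 0, so fewer than 5 are named there. Some genes that the rule names are not reported here. Other genes named were chosen after their values were seen.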

Additional observations from a re-analysis of the deposited data

Results flagged for a closer look

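Control replicate 4 was the outlying library in each case listed here. The gap between it and the nearest of the other 3 controls, divided by the range of the group, exceeded the 95% critical value of Dixon's test. This was seen in 19 of 66 groups of 4 tested, all 19 of them control groups. A chance rate of 1 in 20 does not apply, because some of these genes were named for their control SD or p in the same data. The genes are also not independent, since they share the library.

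The ratio was 0.893 for the summed ribosomal protein share of counts. Among small subunit genes it was 0.958 for Rps12, 0.863 for Rps18, 0.918 for Rps2, 0.979 for Rps29, 0.879 for Rps15, 0.888 for Rps14 and 0.832 for Rps27. For the stalk genes it was 0.931 (Rplp0), 0.869 (Rplp1) and 0.938 (Rplp2), and for other large subunit genes 0.844 (Rpl24), 0.914 (Rpl29), 0.935 (Rpl9) and 0.917 (Rpl3). For components outside the name pattern it was 0.851 (Rpl36al), 0.889 (Rps3a1), 0.935 (Fau) and 0.868 (Rack1). Of the 82 ribosomal protein genes tested, the highest control passed in 57, against 5.38% of all genes tested. The cause was not tested.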

How the results depend on the processing

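No ribosomal protein gene passed an FDR of 0.25 with limma-voom, other size factors, TMM factors set without these genes or mitochondrial genes left out. The same held with either other filter and with added pseudogene reads. In the main edgeR fit none passed an FDR of 0.05 either, the lowest adjusted p being 0.316. DESeq2 called 2 (Rpl24, adjusted p = 0.0447, and Rps27l, 0.113), and library totals without scaling called 1 (Rpl24, 0.249). Leaving out single libraries gave 0 to 2, namely 2 when control replicate 1 and 1 when SAP97-cKO replicate 1 was dropped. Over the leave-one-out fits the median log2 fold change ran from -0.19 to 0.032 and the number below 0 from 21 to 81, and control replicate 4 alone gave 0.032 and 21. Rpl24 ran from -0.42 to -0.29 and Rps27l from -0.50 to -0.32, with edgeR adjusted p from 0.179 to 0.695 for both. Dlg1 ran from -1.0 to -0.78, with an adjusted p above the threshold without control replicate 2 (0.424) or SAP97-cKO replicates 3 (0.524) or 4 (0.346).

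The direction of single genes turned, with no gene past the threshold. Without scaling, Rps2 (-0.0083), Rpl6l (-0.012) and Rpl29 (-0.034) fell below 0. With 1 library left out the ranges were -0.0075 to 0.18 (Rps2), -0.075 to 0.20 (Rpl6l), -0.043 to 0.17 (Rpl29), -0.18 to 0.084 (Rps12), -0.21 to 0.041 (Rps18), -0.18 to 0.037 (Rplp0), -0.12 to 0.049 (Rplp1), -0.13 to 0.045 (Rplp2), -0.17 to 0.067 (Rps15), -0.08 to 0.0020 (Rpl22), -0.07 to 0.047 (Rpl4), -0.12 to 0.013 (Rpl7l1), -0.30 to 0.017 (Rpl9), -0.26 to 0.075 (Rps14), -0.15 to 0.032 (Rpl36al), -0.10 to 0.10 (Rpl3), -0.21 to 0.0091 (Rps3a1) and -0.17 to 0.067 (Fau). The cause was not tested. Without control replicate 4, chosen for lists after seeing the data, the medians of the components outside the name pattern (0.0091), translation factors (0.042) and microglial genes (0.088) turned above 0. Paralog ratios kept their direction in every fit.

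Replicate numbers are shared by the groups, but same-numbered mice correlated at -0.062, 0.201, 0.0898 and 0.259, so they were not taken as pairs. With the replicate block 0 ribosomal protein genes passed, the median was -0.10 and 78 were below 0, against 256 of all genes called in place of 48. Rpl24 was at -0.38 (adjusted p = 0.259) and Dlg1 at -0.87 (0.0219).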
